A study of Homo sapiens with 20 samples.

Results

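The PIM kinases are 3 closely related serine/threonine kinases, PIM1, PIM2 and PIM3, each encoded by its own gene. They were chosen by name, and each gene was represented by the counted GENCODE transcript with the most reads over all libraries, which gave 3 of 19617 genes. The MM1.S multiple myeloma cell line (an established line, labelled as wild type) was treated with 10 nM dCBP-30, a small molecule that degrades the acetyltransferases CBP and p300, or with DMSO alone as the vehicle, for 2, 6 or 24 h. Each of these 6 groups held 3 libraries, with DMSO libraries at every time, and all 18 carried 4-thiouridine (4sU) for the last 1 h, while another 2 libraries carried none. The assay was SLAM-seq, in which a T read as C marks RNA made during labelling. A read with such a conversion (T>C read) was taken as newly made, and the percentage of a gene's reads that are T>C reads is called its labelled share.

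PIM kinases have no regulatory domain that needs phosphorylation to switch them on, so their activity follows the amount of protein, and the protein follows a short-lived mRNA that is induced by cytokine signalling through JAK and STAT proteins and by NF-kB. They phosphorylate the cell death protein BAD, the cell cycle inhibitors p21 and p27 and regulators of translation, and overlap in substrates with AKT. PIM2 is known for its high expression in plasma cells and multiple myeloma.

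PIM1 (ENSG00000137193) lies on the plus strand of chromosome 6 (hg38, 37170152 to 37175428), PIM2 (ENSG00000102096) on the minus strand of chromosome X (48913182 to 48919024) and PIM3 (ENSG00000198355) on the plus strand of chromosome 22 (49960768 to 49964072). Each has 6 exons, and reads were counted on the 3′ UTR, which has 1337 bases in PIM1, 949 in PIM2 and 945 in PIM3 and is overlapped by no exon of another gene. The 3 UTRs shared no word of 25 bases, and at most 1.714% of PIM1, 0.172% of PIM2 and 0.496% of PIM3 reads of a library mapped to more than one place. The UTRs differ in AU-rich elements, sequence stretches known for marking short-lived mRNAs. The overlapping motif TTATTTATT occurred 3 times in the PIM1 UTR and in none of the others, and 5.37% of the 3535 counted UTRs of 800 to 1500 bases held it. The shorter ATTTA, which is part of it, occurred 5 times in PIM1, 2 times in PIM2 and 4 times in PIM3, and 73.7% of those UTRs held it. At least as many matches as in PIM1, PIM2 and PIM3 were found in 14.4%, 50.7% and 22% of those UTRs. Shown here, on the sense strand with ATTTA in capitals, are the repeated stretch of PIM1 (chr6:37174987-37175016), a single match in PIM2 (chrX:48913219-48913248) and 2 matches close together in PIM3 (chr22:49963612-49963641), so that the density of the motif can be compared.
PIM1: ttatgtATTTATTTATTTATTTAtttggtt
PIM2: cctgcctggattATTTAaaaagccatgtgt
PIM3: cccaccggggctATTTAttgtttaATTTAt
The Pumilio motif TGTANATA, bound by a family of mRNA decay factors, occurred 1 time in each member and in 19.2% of the compared UTRs. Shown with this motif in capitals are PIM1 (chr6:37175232-37175261), PIM2 (chrX:48913286-48913315) and PIM3 (chr22:49964054-49964072), where it ends the UTR.
PIM1: attgctgactgTGTATATAggataattatg
PIM2: aattactaaaaTGTAAATAatcacgtattg
PIM3: taaaatgttttTGTACATA
RefSeq promoters (GRCh38.p14, 250 bases before to 50 after the start) were found for all 3 members. In the first listed promoter of each, neither the STAT motif TTCNNNGAA nor the E-box CACGTG had a match on either strand. Of 35116 promoters 7.66% and 7.26% held them. Further promoters of a member, if listed, were not searched. These matches describe letters and were not tested for binding.

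The libraries held between 12440700 and 18729086 reads. Levels are given as RPM, reads per 1e+06 reads of the library's total after scaling by its TMM factor (edgeR's correction of library size). In the DMSO libraries all 10 plasma cell and myeloma markers measured (SDC1, TNFRSF17, CD38, XBP1, MZB1, JCHAIN, IRF4, PRDM1, SLAMF7 and MAF) lay between 99.1 and 1787 RPM. Of 4 B cell, 4 T cell and 4 myeloid markers none exceeded 15.1 RPM, with CD3D and LYZ at 0. T>C reads were 5.995 to 6.134% of all reads in DMSO at 2 h, 6.241 to 6.587% at 6 h and 8.146 to 8.617% at 24 h, against 5.426 to 5.691, 4.712 to 5.278 and 5.915 to 6.865% with dCBP-30. At 24 h a T>C read carried 1.426 to 1.512 conversions with dCBP-30 and 2.458 to 2.507 with DMSO, while the groups at 2 and 6 h lay between 2.122 and 2.274. Values are per library and relative to all reads, so that fewer cells and less RNA per cell cannot be told apart.

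In vehicle-treated cells PIM2 was by far the most abundant PIM transcript and PIM1 the one with the highest labelled share. Per kilobase of counted UTR, all reads of PIM2 came to 2576 ± 278 RPM in DMSO at 2 h (SD, n = 3), of PIM3 to 133 ± 10.1 and of PIM1 to 93.6 ± 15.8. The kit reads the 3′ end of each molecule, and not divided by length the means were 2445, 126 and 125 RPM, with the libraries of PIM3 and PIM1 overlapping. The labelled share ran in a different order. It was 64.7% ± 1.34 for PIM1, 31.0% ± 2.40 for PIM3 and 17.99% ± 0.223 for PIM2 (SD, n = 3), against a median of 7.99% over the 7940 genes with at least 100 reads in each of these libraries. Of these genes 99.6% had a lower share than PIM1, 95.8% than PIM3 and 84.0% than PIM2. The share depends on how many T positions a read covers, which was 24.3 to 25.3 for PIM2, 28.4 to 30.4 for PIM1 and 30.6 to 31.3 for PIM3. Conversions per 1000 covered T, which do not depend on it, kept the order, with 48.5 ± 3.88 in PIM1, 24.5 ± 1.89 in PIM3 and 16.0 ± 0.418 in PIM2.

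The background of the assay was low for every member. Without 4sU, T>C reads were 0.802% (95% Clopper-Pearson interval 0.490 to 1.24) and 1.02% (0.607 to 1.61) of the PIM1 reads, 0.493% (0.427 to 0.565) and 0.397% (0.330 to 0.473) of the PIM2 reads, and 0.407% (0.223 to 0.682) and 0.551% (0.285 to 0.960) of the PIM3 reads. These intervals cover counting error only. The lowest labelled share of any member in any labelled library, 3.04% for PIM2 in a dCBP-30 library at 2 h, lay above all of them.

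Newly made PIM1 RNA was lower with dCBP-30 at every time, by 7.74-fold at 2 h, 9.60-fold at 6 h and 8.17-fold at 24 h. PIM1 is the founding member of the family, a target of STAT signalling and a partner of MYC in lymphoid tumours. Its T>C reads were 7.07, 14.3 and 9.83 RPM in the 3 dCBP-30 libraries at 2 h and 68.1, 79.8 and 94.9 RPM with DMSO. At 6 h they were 12.5, 7.82 and 8.40 RPM against 92.0, 101 and 82.1, and at 24 h 8.48, 6.70 and 6.97 RPM against 56.6, 65.3 and 59.2. The groups were far apart at each time, with all dCBP-30 libraries under the DMSO ones. The log2 fold change of T>C reads at 2, 6 and 24 h was -2.95 ± 0.20 (SE), -3.26 ± 0.20 and -3.03 ± 0.20, with adjusted p of 5.2e-19, 6.0e-21 and 1.3e-19 (edgeR's quasi-likelihood test). At 24 h the median over all genes was itself -0.69, and relative to it PIM1 was at -2.34. Scaled by T>C reads, PIM1 at 24 h was at -2.38 with TMM factors and at -2.28 with DESeq2. No difference between these changes passed the test (adjusted p 0.59 for 6 h against 2 h, 0.66 for 24 h against 6 h and 0.88 for 24 h against 2 h).

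All reads of PIM1 were already low at 2 h. They were 15.1, 23.3 and 19.2 RPM against 104, 126 and 146 at 2 h, 28.3, 20.8 and 22.6 RPM against 134, 144 and 130 at 6 h, and 19.6, 16.2 and 17.6 RPM against 84.0, 85.9 and 78.0 at 24 h. The groups did not overlap at any time. The log2 fold change at 2, 6 and 24 h was -2.70 ± 0.16, -2.51 ± 0.15 and -2.21 ± 0.15 (adjusted p 4.7e-12, 1.1e-12 and 7.0e-12). At 2 h only 66 of the 12272 genes tested had a larger decrease in all reads than PIM1. Reads without a conversion, from RNA made before labelling and from new RNA in which none was read, averaged 8.80 RPM against 44.2 at 2 h, 14.3 against 44.1 at 6 h and 10.4 against 22.3 at 24 h.

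T>C reads of PIM2 were already low at 2 h, its reads in all were lowest at 6 h, and both were less reduced at 24 h than at 6 h. Its T>C reads were 48.8, 44.8 and 41.8 RPM with dCBP-30 at 2 h, against 390, 453 and 475 with DMSO. At 6 h the values were 20.7, 28.5 and 33.7 RPM against 602, 550 and 522, and at 24 h they were 150, 90.0 and 221 RPM against 628, 628 and 609. The groups were apart at every time, and the dCBP-30 libraries at 24 h, which spread more widely than those of the other groups, lay above all dCBP-30 libraries of 2 and 6 h. The log2 fold change of T>C reads at 2, 6 and 24 h was -3.28 ± 0.22, -4.33 ± 0.23 and -2.02 ± 0.21 (adjusted p 2.2e-11, 1.3e-13 and 2.1e-08). Relative to the median of all genes, PIM2 was at -4.06 at 6 h and at -1.33 at 24 h. From 6 to 24 h the change moved up by 2.32 ± 0.29 (adjusted p = 3.0e-06), in a comparison in which 2.92% of genes moved up. The further decrease from 2 to 6 h, -1.05 ± 0.29 (adjusted p = 0.023, where 7.35% of genes moved down), was lost under 5 of 9 alternative settings and without any 1 of 6 libraries, with adjusted p between 0.061 and 0.18 in these.

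All reads of PIM2 followed with a delay. They were 1283, 1473 and 1298 RPM with dCBP-30 at 2 h against 2144, 2551 and 2639 with DMSO, a log2 fold change of -0.86 ± 0.17 (adjusted p = 0.0025) that stayed under the 2-fold asked of a call. At 6 h they were 151, 178 and 250 RPM against 3239, 2915 and 2756, or -3.94 ± 0.19 (adjusted p = 3.5e-14), and at 24 h 905, 612 and 1099 RPM against 2427, 2324 and 2339, or -1.44 ± 0.17 (adjusted p = 1.4e-07). At no time did the groups overlap, and the 6 h libraries were the lowest of all 18. The change moved by -3.09 ± 0.24 from 2 to 6 h (adjusted p = 1.3e-09, where 10.7% of genes moved down) and by 2.51 ± 0.24 from 6 to 24 h (adjusted p = 1.6e-08, where 15.5% moved up). Reads without a conversion averaged 1306 ± 106 RPM with dCBP-30 against 2005 ± 220 with DMSO at 2 h, 165 ± 45.0 against 2412 ± 206 at 6 h, and 718 ± 181 against 1742 ± 52.7 at 24 h (SD, n = 3, groups apart at each time, no separate test). Without TMM factors the change of all reads at 24 h was -0.92, under 2-fold.

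PIM3 showed no decrease at 2 h and lower newly made RNA at 6 and 24 h. Its T>C reads were 42.4, 56.2 and 46.6 RPM with dCBP-30 at 2 h against 34.6, 36.9 and 45.9 with DMSO. The 2 groups overlapped, and the log2 fold change of 0.31 ± 0.17 did not pass the test (adjusted p = 0.31). At 6 h the values were 14.7, 13.6 and 17.7 RPM against 47.9, 37.3 and 40.3, and at 24 h 18.7, 18.7 and 26.5 RPM against 49.2, 39.5 and 45.8, with the groups apart at both times. The log2 fold change was -1.45 ± 0.18 at 6 h and -1.07 ± 0.18 at 24 h (adjusted p 1.5e-09 and 1.0e-06). From 2 to 6 h the change moved by -1.76 ± 0.25 (adjusted p = 5.5e-07) and from 2 to 24 h by -1.38 ± 0.25 (adjusted p = 1.5e-05), while the step from 6 to 24 h did not pass (0.37 ± 0.25, adjusted p = 0.38). The call at 24 h rests on the scaling, since the change was -0.55 without TMM factors and -0.43 with scaling by T>C reads, and on either of dCBP-30 libraries 1 and 2, without which it was -0.99.

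All reads of PIM3 changed little. They were 158, 206 and 152 RPM with dCBP-30 against 117, 124 and 136 with DMSO at 2 h, where all dCBP-30 libraries exceeded all DMSO libraries and the log2 fold change was 0.45 ± 0.12 (adjusted p = 0.028). At 6 h they were 75.7, 81.0 and 92.4 RPM against 124, 122 and 114, or -0.53 ± 0.12 (adjusted p = 0.0010), and at 24 h 74.1, 69.2 and 70.6 RPM against 103, 86.3 and 87.7, or -0.37 ± 0.12 (adjusted p = 0.011). None of these 3 changes reached 2-fold. The direction at 24 h depended on the scaling, with 0.15 without TMM factors, a setting that moved the median of all genes from 0.05 to 0.58. Relative to that median PIM3 was at -0.42 and -0.43 under these 2 scalings.

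**Figure D1:**
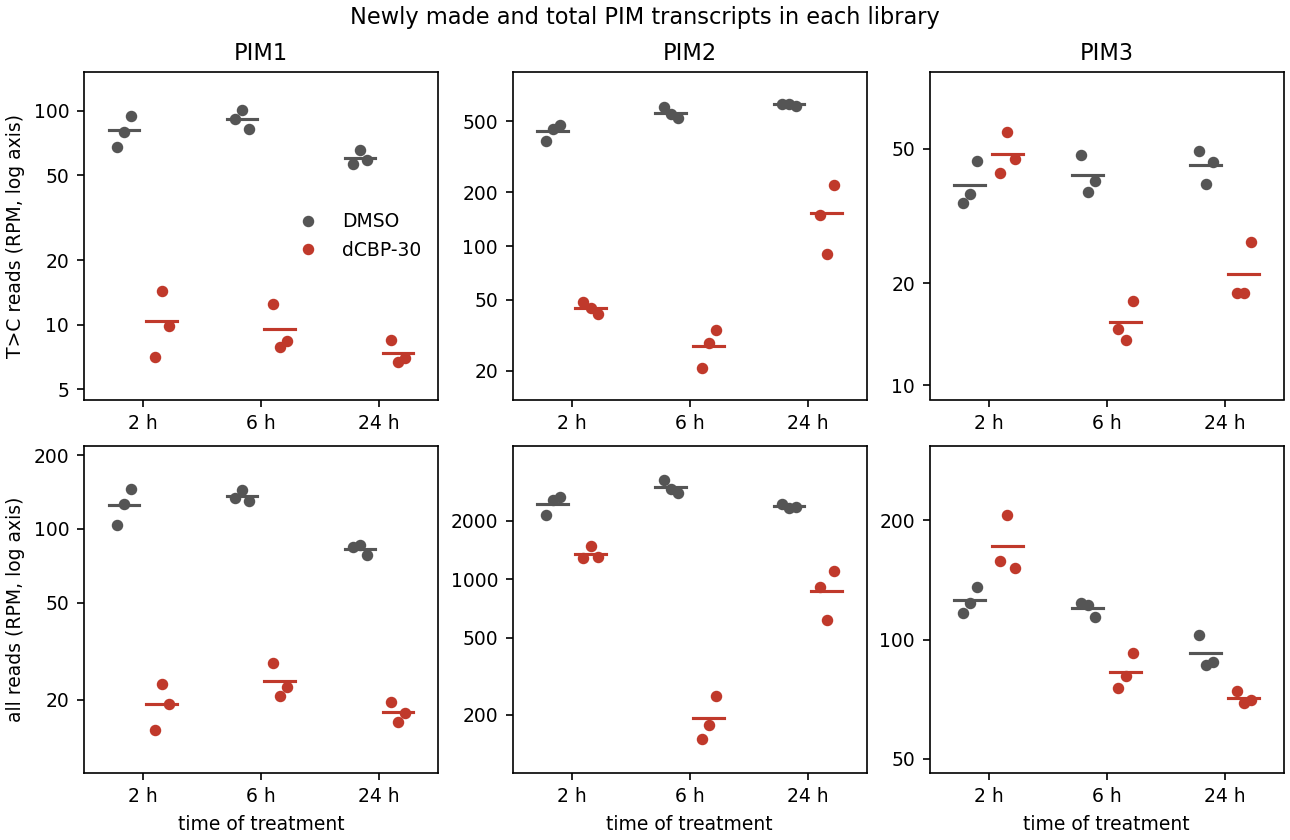
T>C reads (upper row) and all reads (lower row) of PIM1, PIM2 and PIM3 in RPM of the library's TMM-scaled total, on log axes, at 2, 6 and 24 h of DMSO (grey) or dCBP-30 (red). Each point is 1 library and each bar the mean of 3, and a reader should see PIM1 low in both rows at every time, all reads of PIM2 lowest at 6 h (151 to 250 RPM), and PIM3 not below DMSO at 2 h.

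Against the background of all genes, PIM1 and PIM2 were called lower in T>C reads at all 3 times and PIM3 at 6 and 24 h, that is 2, 3 and 3 of the 3 members, where 7.14%, 17.1% and 31.2% of the 10086 genes tested were called lower at 2, 6 and 24 h. A call needs an adjusted p under 0.05 and over 2-fold. In all reads, 1 member (PIM1) was called lower at 2 h and 2 (PIM1 and PIM2) at 6 and 24 h, where 1.25%, 8.67% and 16.1% of 12272 genes were called lower. The median log2 fold change of T>C reads over all genes was 0.05, -0.27 and -0.69 at the 3 times. At 24 h, 5.12% of genes had a larger decrease in T>C reads than PIM1, 13.9% than PIM2 and 36.8% than PIM3, so the change of PIM3 at this time lay well inside the range of most genes.

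**Figure D2:**
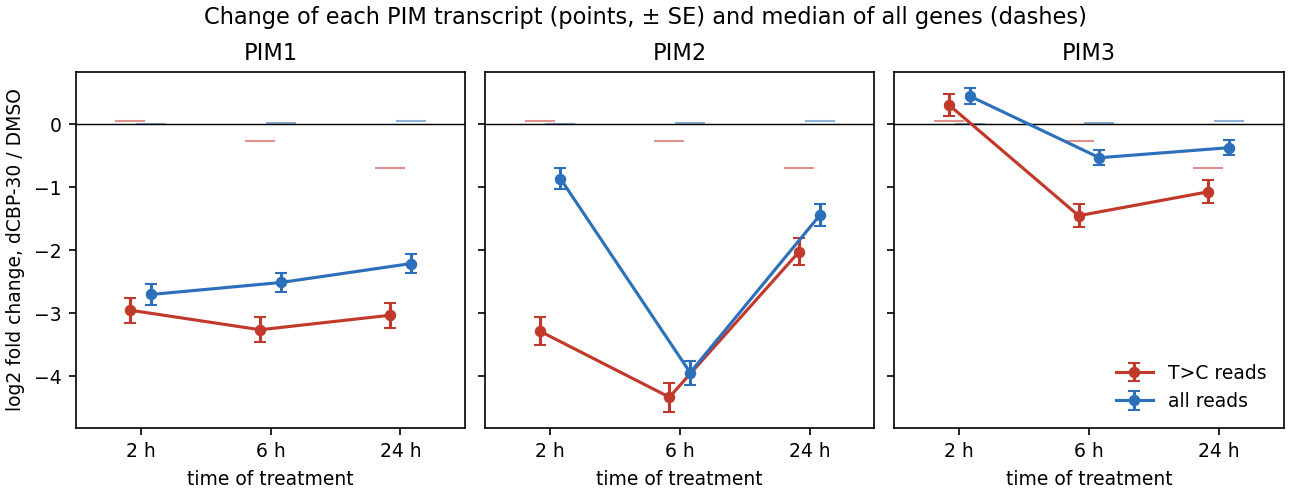
Log2 fold change of dCBP-30 over DMSO (y axis) at 2, 6 and 24 h in T>C reads (red) and all reads (blue) of each member. Points carry a standard error derived from the edgeR test statistic, and dashes of the same colours mark the median of all genes tested. PIM1 stays near -3 in T>C reads, PIM2 in all reads goes from -0.86 to -3.94 and back to -1.44, and PIM3 starts above 0.

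The labelled share moved in different ways in the 3 members. For PIM1 it was 46.9, 61.2 and 51.3% with dCBP-30 at 2 h against 65.8, 63.2 and 65.1%, then 44.1, 37.7 and 37.2% against 68.9, 70.4 and 63.1% at 6 h, and 43.2, 41.4 and 39.6% against 67.4, 76.0 and 75.8% at 24 h. The groups were apart at all times, but the log2 odds ratio passed the test only at 6 h (-1.66 ± 0.28, adjusted p = 3.2e-04) and at 24 h (-1.95 ± 0.28, adjusted p = 3.0e-05), not at 2 h (-0.68 ± 0.28, adjusted p = 0.20). Among the 9146 genes tested for the share, 5.47%, 7.82% and 28.1% were lower at 2, 6 and 24 h at an adjusted p under 0.05.

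The share of PIM2 was also below DMSO at every time, but furthest below it at 2 h, where that of PIM1 was closest. Its share was 3.80, 3.04 and 3.22% at 2 h against 18.2 and 17.8% and, with 6359 of 35335 reads, a value between these with DMSO, a log2 odds ratio of -2.67 ± 0.13 (adjusted p = 6.5e-13). At 6 h it was 13.7, 16.0 and 13.5% against 18.6, 18.9 and 18.9% (-0.46 ± 0.13, adjusted p = 0.022), and at 24 h 16.6, 14.7 and 20.1% against 25.9, 27.0 and 26.0% (-0.80 ± 0.12, adjusted p = 6.5e-05). The dCBP-30 libraries were all below those with DMSO of the same time, and those at 2 h stood far below all others. The change moved up by 2.20 ± 0.18 from 2 to 6 h (adjusted p = 3.4e-08), where 1.36% of genes moved up. This call was lost with a replicate block fitted in limma instead of edgeR (2.20, adjusted p = 0.057), a setting that changed model and block together. At 24 h the median over all genes was -0.77, close to the value of PIM2. The call at 6 h was lost with the same limma block (-0.46, adjusted p = 0.32), with background subtraction (adjusted p = 0.059) and without any 1 of 5 of the 6 h libraries (adjusted p 0.057 to 0.082).

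For PIM3 the share was 26.8, 27.2 and 30.7% against 29.5, 29.8 and 33.8% at 2 h, where the groups overlapped (log2 odds ratio -0.19 ± 0.24, adjusted p = 0.76). It was 19.4, 16.8 and 19.2% against 38.7, 30.7 and 35.3% at 6 h and 25.2, 27.0 and 37.5% against 47.8, 45.8 and 52.3% at 24 h, apart at both times (-1.24 ± 0.24 and -1.16 ± 0.24, adjusted p 0.0014 and 0.0012). At 24 h, T>C reads with dCBP-30 also carried fewer conversions, 1.60 ± 0.0949 for PIM3, 1.41 ± 0.0726 for PIM2 and 1.90 ± 0.473 for PIM1, against 2.66 ± 0.0279, 2.46 ± 0.0337 and 2.61 ± 0.148 with DMSO (SD, n = 3). The part of this in the shares and T>C reads at 24 h was not tested. Averaged over the 3 times, the log2 odds of the share differed by -1.43 for PIM1, -1.31 for PIM2 and -0.87 for PIM3 (two-sided exact permutation test within times, p = 2.5e-04, 2.5e-04 and 7.5e-04, where 2.5e-04 is the smallest it can give). The median log2 odds ratio over all genes was 0.02, -0.34 and -0.77 at 2, 6 and 24 h, a shift that this permutation test did not take out. PIM2 was near these medians at 6 and 24 h (-0.46 and -0.80) and far below at 2 h (-2.67).

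**Figure D3:**
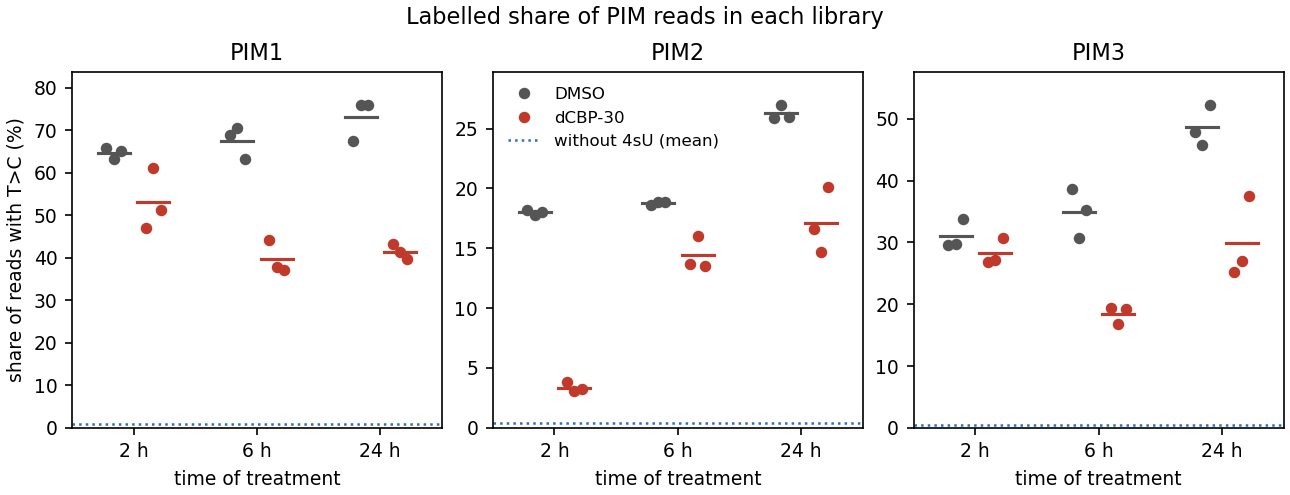
Percentage of reads with a T>C conversion for PIM1, PIM2 and PIM3 (y axes from 0, with a scale of their own) at 2, 6 and 24 h of DMSO (grey) or dCBP-30 (red), 1 point per library with the mean of 3 as a bar, and the mean of the 2 libraries without 4sU as a dotted line. The share of PIM2 is 3.04 to 3.80% with dCBP-30 at 2 h and 13.5 to 16.0% at 6 h, while that of PIM1 is lowest at 6 and 24 h.

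The members were compared directly by the ratio of their T>C reads within each library, which needs no scaling. The log2 ratio of PIM2 to PIM3, whose UTRs are of nearly the same length, was 3.49 ± 0.12 (SD, n = 3) with DMSO at 2 h and -0.09 ± 0.27 with dCBP-30. The difference between treatments, PIM2 minus PIM3, was -3.59 ± 0.17 (SE), -2.91 ± 0.19 and -1.02 ± 0.27 at 2, 6 and 24 h, with the groups apart at each time. Over the 3 times it was -2.51 (two-sided exact permutation test within times, p = 2.5e-04). For PIM1 minus PIM3 it was -3.31 ± 0.18, -1.84 ± 0.29 and -1.94 ± 0.27 and -2.36 over the times (p = 2.5e-04 by the same exact test). At a single time 3 libraries against 3 cannot go below an exact p of 0.1.

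PIM1 and PIM2 were not told apart when averaged over the times, with a difference of -0.14 in T>C reads (two-sided exact permutation test, p = 0.64), since its parts ran in opposite directions. At 2 h the ratio of PIM2 to PIM1 overlapped between treatments (-0.28 ± 0.33, exact p = 0.60). At 6 h the ratio was lower with dCBP-30 (-1.07 ± 0.41) and at 24 h higher (0.92 ± 0.37), with the groups apart at both times and the smallest exact p of 0.1. In all reads the difference at 2, 6 and 24 h was 1.86 ± 0.14, -1.45 ± 0.32 and 0.74 ± 0.22, again with groups apart, and 0.38 over the times (exact permutation p = 0.34). Of the 6 comparisons made (3 pairs in T>C and in all reads), the 4 with PIM3 had an exact permutation p of 2.5e-04 and an adjusted p of 3.8e-04 (Benjamini-Hochberg over the 6), and the adjusted p of the other 2 were 0.64 and 0.41.

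**Figure D4:**
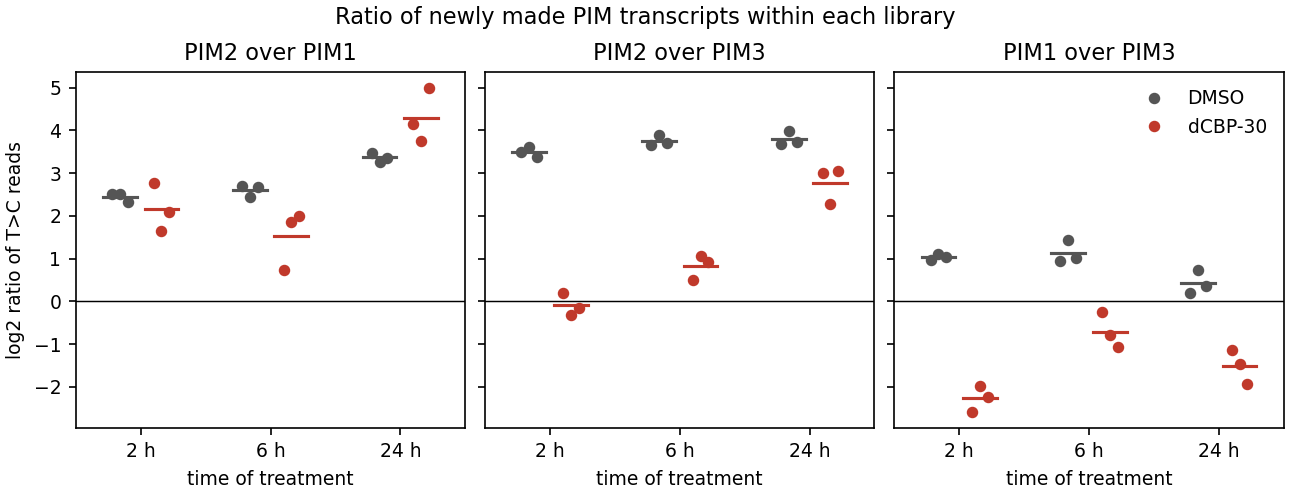
Log2 ratio of the T>C reads of each pair of members within a library, with 0.5 added to each count (y axis), at 2, 6 and 24 h of DMSO (grey) or dCBP-30 (red), 1 point per library and the mean of 3 as a bar. The ratios of PIM2 and PIM1 to PIM3 are lower in all dCBP-30 groups than in DMSO at the same time, and PIM2 over PIM1 is below DMSO at 6 h and above it at 24 h.

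In the vehicle alone, T>C reads of PIM1 and PIM2 moved less than between treatments, but the shares and all reads of PIM3 did not always. All reads of PIM3 moved by -0.44 ± 0.12 from 2 to 24 h of DMSO (adjusted p = 0.13 in the edgeR test). Between treatments they differed by -0.37 ± 0.12 at 24 h. The PIM2 share moved by 0.70 from 2 to 24 h of DMSO, beside -0.46 between treatments at 6 h. Between 6 and 24 h of DMSO, T>C reads of PIM1 were lower by a log2 fold change of -0.60 ± 0.18 (adjusted p = 0.0489) and all reads by -0.72 ± 0.15 (adjusted p = 0.031), both under 2-fold, beside medians over all genes of 0.43 and 0.00. T>C reads of PIM2 and PIM3 differed by 0.16 ± 0.20 and 0.10 ± 0.17 over the same interval (adjusted p 0.70 and 0.78), under that median of 0.43. The labelled share rose from 2 to 24 h of DMSO for PIM2 (0.70 ± 0.12, adjusted p = 0.0033) and PIM3 (1.07 ± 0.24, adjusted p = 0.011) and did not pass for PIM1 (0.58 ± 0.27, adjusted p = 0.15). The median over all genes moved by 0.61 in the same comparison, and 8.71% of genes passed upwards, so the values of PIM2 and PIM1 lay near that of all genes. Ordered by mean T>C reads, no group of PIM2 overlapped with its neighbour, at 622, 558 and 440 RPM (DMSO at 24, 6 and 2 h) and 154, 45.1 and 27.6 RPM (dCBP-30 at 24, 2 and 6 h). The DMSO groups did not pass the edgeR test against each other (adjusted p 0.93 for 6 against 2 h, 0.70 for 24 against 6 h and 0.13 for 24 against 2 h). From 2 to 24 h of DMSO, PIM2 moved by 0.50 ± 0.20, beside a median of 0.49 over all genes. The dCBP-30 groups of different times were not tested against each other, and the share of genes without overlap was not counted. For PIM1 the 3 dCBP-30 groups overlapped with their neighbours, at 10.4, 9.56 and 7.38 RPM. For PIM3 the 3 DMSO groups and dCBP-30 at 2 h overlapped with their neighbours, between 39.1 and 48.4 RPM.

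Among 20 genes that act upstream of PIM transcription, newly made RNA of the IL-6 receptor chains and of 2 TNF-family receptors fell at all 3 times, while JAK and STAT genes mostly did not pass. Of the 18 tested in T>C reads at 2 h, 5 were called lower and 0 higher, with a list median of -0.74 beside 0.05 for all genes, where 7.14% of genes were called lower and 1.66% higher. They were TNFRSF13B and TNFRSF17 (receptors for BAFF and APRIL on plasma cells), at -3.75 ± 0.41 and -3.59 ± 0.39, IL6ST and IL6R (the IL-6 receptor chains), at -3.07 ± 0.22 and -2.21 ± 0.20, and the NF-kB subunit RELB, at -1.03 ± 0.35, with adjusted p up to 0.0464. In all reads at 2 h only IL6ST of 19 tested was called (-2.01). At 6 h 6 were lower (the same 5 genes and NFKB2) and 1 higher (STAT3), and at 24 h 4 were lower (the 4 receptors) and 1 higher (JAK2), where 17.1% and 31.2% of all genes were called lower and 2.36% and 2.17% higher. JAK2 at 24 h was at the edge of the threshold (1.43 ± 0.60, adjusted p = 0.0499 in the edgeR test). Its T>C reads were few and the groups overlapped, with 2.62 ± 1.12 RPM against 0.965 ± 0.646 with DMSO (SD, n = 3). The list medians at 6 and 24 h were -0.61 and -0.52 beside -0.27 and -0.69 for all genes. These genes at 6 and 24 h, and those that follow for the other lists and the neighbours at these times, were chosen after their values were seen.

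Of 28 genes whose proteins PIM kinases phosphorylate, 27 were tested in T>C reads, and 7 were called lower and 0 higher at 2 h. The 3 largest decreases were in MYC (a transcription factor, -6.29 ± 0.50), CXCR4 (a chemokine receptor, -5.01 ± 0.35) and FOXO3 (a transcription factor, -2.71 ± 0.14), with adjusted p up to 4.7e-07. At 6 h 10 were lower and 0 higher, and at 24 h 14 lower and 1 higher (RUNX1), where 7.14%, 17.1% and 31.2% of all genes were called lower at 2, 6 and 24 h. The median over the list was -0.34, -0.95 and -1.20 at the 3 times, beside 0.05, -0.27 and -0.69 for all genes.

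Of 19 kinases and regulators of the AKT and mTOR pathway, which shares substrates with the PIM kinases, 5 were called lower and 1 higher at 2 h, with a list median of 0.01. Among the lower were SGK1 (a kinase related to AKT, -5.03 ± 0.48), PIK3CG (a PI3K catalytic subunit, -2.59 ± 0.45), the mTOR inhibitor DEPTOR (-1.64 ± 0.32) and RICTOR (an mTORC2 subunit, -1.13 ± 0.37). For RICTOR the adjusted p was 0.036 in the edgeR test and the groups overlapped. RPS6KB2, a ribosomal S6 kinase, was higher (1.32 ± 0.35, adjusted p = 0.0063). At 6 h 3 were lower (DEPTOR and SGK1 among them) and 1 higher (SGK3), and at 24 h 2 were lower (DEPTOR and SGK1) and 1 higher (PIK3CA). The list medians were -0.11 and -0.76 beside -0.27 and -0.69 for all genes. At 6 and 24 h the share of the list called lower was no higher than the 17.1% and 31.2% of all genes, while 7.14% of all genes were called lower at 2 h.

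Around each member, the 3 nearest counted protein-coding genes on each side were examined. At 2 h, 3 of the 6 genes near PIM1, 5 of 6 near PIM2 and 3 of 6 near PIM3 were tested in T>C reads and 0 were called lower, while C6orf89, 241 kb from PIM1, was called higher (1.17 ± 0.31, adjusted p = 0.0054). The nearest to PIM2, SLC35A2 (a UDP-galactose transporter) at 1.22 kb and OTUD5 (a deubiquitinase) on the other side, had log2 fold changes of 1.12 (adjusted p = 0.095) and -0.84 (adjusted p = 0.13). By 24 h, 0 of 3 near PIM1, 1 of 5 near PIM2 (PQBP1, -1.84) and 2 of 3 near PIM3 (ALG12, -1.89, and CRELD2, -1.35) were called lower, where 31.2% of all genes were.

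The genes whose T>C reads followed each member most closely over the 18 labelled libraries, by Pearson correlation of log2 RPM among 4783 genes averaging 50 or more T>C reads per library, were MYC (r = 0.974), CXCR4 (0.971) and SLC1A4 (an amino acid transporter, 0.969) for PIM1. Their changes at 2, 6 and 24 h were -6.29, -6.54 and -6.81, -5.01, -4.75 and -5.54, and -1.99, -2.36 and -2.62. PIM1 was at -2.95, -3.26 and -3.03, so a high correlation does not mean a change of like size. For PIM2 the most correlated genes were CHMP4B (an ESCRT-III subunit, 0.994), RBM38 (an RNA-binding protein, 0.991) and IKZF3 (a lymphoid transcription factor, 0.988), whose changes at 2, 6 and 24 h were -2.16, -2.71 and -1.31, -2.52, -3.02 and -1.57, and -2.59, -3.40 and -1.66. For PIM3 they were PDCD2L (0.968), ZNRF3 (a ubiquitin ligase, 0.956) and URB1 (a ribosome biogenesis factor, 0.953), which were at 0.29, 0.31 and 0.64 at 2 h (not called) and at -2.36, -2.07 and -2.67 at 6 h. Between members r was 0.849 for PIM1 and PIM2, 0.596 for PIM1 and PIM3 and 0.564 for PIM2 and PIM3. The points share 6 groups that separate by treatment, so these correlations are descriptions.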

How the data were processed

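SLAM-seq counts of 20 MM1.S libraries were used. Per the labels, RNA was alkylated, made into 3′-end libraries and trimmed with Trim Galore. According to the methods, Slamdunk mapped and counted reads on 3′ UTRs of hg38, and a Drosophila spike-in was added, which was not used here. The authors deposited, per transcript and library, raw counts (covered T positions, conversions, T>C reads and all reads), without normalization or pooling.

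Of 97466 transcript rows, 89088 (91.4%) matched GENCODE 44. The transcript with the most reads stood for each of 19617 genes, and depth was 12440700 to 18729086 reads per library. Libraries of a group differed beyond sampling noise (chi-square per degree of freedom 8.54 to 50.1). The labels do not say whether they came from separate cultures, so p-values measure the spread between these libraries. The members and gene lists were chosen with earlier results of these data known.

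edgeR 4.0.16 (R 4.3.3, robust quasi-likelihood test, 1 mean per group, 18 labelled libraries) was fitted to T>C reads and to all reads over all genes, with total reads and TMM factors as library size, filterByExpr (minimum count 10) and Benjamini-Hochberg adjustment. RPM uses the same sizes. The SE of a change in the edgeR fits, those of the share included, is its absolute value divided by the square root of the test's F statistic. A call needed an adjusted p under 0.05 and over 2-fold, while differences between times and the labelled share needed the adjusted p alone. The share was fitted as T>C against other reads, with library effects, for genes with at least 20 reads in every library. Ratios between members (pseudocount 0.5) were tested with exact permutations in Python 3.11.15. The edgeR tests were also tried on data simulated from the values of these libraries. Named are all members, the listed and neighbouring genes called in T>C reads at 2 h (where over 6, the 3 largest decreases and increases with at least 20 T>C reads), and the 3 genes most correlated with each member. A few listed genes are not reported here by name. Replicate numbers did not pair the libraries (correlations of same-numbered deviations -0.305 to 0.101). The alternatives were other scalings, DESeq2 1.42.0, no filter or at least 20 T>C reads, each time alone, summed transcripts, background subtraction, other pseudocounts, a replicate block (for the share with limma 3.58.1) and leaving out each library.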

Additional observations from a re-analysis of the deposited data

Results flagged for a closer look

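The effect of dCBP-30 on a member differed between times, by the test of that difference in the fit over all genes, in 12 cases, each given here as the later log2 change minus the earlier. In T>C reads PIM2 moved by -1.05 ± 0.29 from 2 to 6 h (adjusted p = 0.023), by 2.32 ± 0.29 from 6 to 24 h (3.0e-06) and by 1.27 ± 0.29 from 2 to 24 h (0.0017), and PIM3 moved by -1.76 ± 0.25 from 2 to 6 h (5.5e-07) and by -1.38 ± 0.25 from 2 to 24 h (1.5e-05). In all reads PIM2 moved by -3.09 ± 0.24 from 2 to 6 h (1.3e-09) and by 2.51 ± 0.24 from 6 to 24 h (1.6e-08), and PIM3 by -0.98 ± 0.17 from 2 to 6 h (1.4e-04) and by -0.83 ± 0.17 from 2 to 24 h (3.5e-04). In the log2 odds of the labelled share PIM1 moved by -1.28 ± 0.40 from 2 to 24 h (0.036), and PIM2 by 2.20 ± 0.18 from 2 to 6 h (3.4e-08) and by 1.87 ± 0.18 from 2 to 24 h (1.6e-07). The PIM1 value was lost with a replicate block in limma (-1.26, adjusted p = 0.087) and without any 1 of 8 libraries (adjusted p 0.0521 to 0.10), and the PIM2 share from 2 to 6 h with that limma block (adjusted p = 0.057). The comparisons with 2 h share its libraries, as do those with 6 h.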

How the results depend on the processing

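Calls for PIM1 and PIM2 in T>C reads at 2, 6 and 24 h kept direction and side of the threshold under every alternative run, as did those of PIM1 in all reads, with PIM1 at 24 h between -3.14 and -2.28 and PIM2 between -2.37 and -1.30. Without TMM factors, values were -0.84 for PIM2 T>C reads, 6 against 2 h (adjusted p = 0.11), -0.55 for PIM3 T>C reads at 24 h, -0.92 for PIM2 all reads at 24 h, 0.15 for PIM3 all reads at 24 h, 0.90 and -0.41 for PIM1 and PIM3 all reads, 24 against 2 h, and 0.34 for PIM1 T>C reads, 24 against 2 h (not called in any setting). Scaled by T>C reads, with TMM and with DESeq2 size factors, PIM3 T>C reads at 24 h were at -0.43 and -0.33, PIM2 T>C reads, 6 against 2 h, at -0.74 and -0.69, PIM3 T>C reads, 24 against 6 h, at 0.70 and 0.74 (past the threshold), and PIM1 T>C reads, 24 against 2 h, at 0.57 and 0.65, while PIM1, 6 against 2 h, was at 0.04 with DESeq2. These scalings take the median of all genes at 24 h from -0.69 to -0.04 and 0.00, and relative to it PIM3 was at -0.39, -0.40 and -0.33. PIM2 T>C reads, 6 against 2 h, were at -1.04 (adjusted p = 0.092) with summed transcripts and at -0.89 (0.095) with background subtraction, which also left the PIM2 share at 6 h at -0.47 (0.059). PIM2 all reads, 24 against 2 h, -0.58 with an adjusted p of 0.0502, passed with DESeq2 (-0.57) and with no filter (-0.58). Given as conversions per covered T, the share, 24 against 6 h, was at -0.93 for PIM2 (past the threshold) and -0.60 for PIM3, and, 24 against 2 h, at -1.33 for PIM3 (past it). Replacing T>C by all reads turned PIM2 minus PIM1 from -0.14 to 0.38, and at 2 h from -0.28 to 1.86. The cause was not tested in these cases.

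Leaving out 1 library at a time gave -1.22 to -0.88 for PIM2 T>C reads, 6 against 2 h, -0.28 to 0.22 for PIM1 T>C reads, 24 against 2 h, -1.26 to -0.99 for PIM3 T>C reads at 24 h, 0.35 to 0.65 for PIM1 and -0.78 to -0.38 for PIM2 all reads, 24 against 2 h, and, in the share, -1.48 to -1.03 for PIM1, 24 against 2 h, -0.56 to -0.41 for PIM2 at 6 h, and -1.18 to -0.93, -0.18 to 0.24 and -1.23 to -0.81 for PIM3, 6 against 2, 24 against 6 and 24 against 2 h, with a change of call or of sign in each.

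With a replicate block, in numbers that do not pair the libraries (1 of 9 dCBP-30 libraries correlated best with the DMSO library of its own number), PIM2 all reads, 24 against 2 h, were at -0.63 (past the threshold), the PIM1 share, 24 against 2 h, at -1.26, the PIM2 share at 6 h at -0.46 and its difference 6 against 2 h at 2.20 (adjusted p 0.087, 0.32 and 0.057), and it changed no other call. For the share the block was fitted with limma instead of edgeR, so the effect of the block alone was not tested. Exact permutation of the share at each time could not pass, since 3 against 3 libraries give no p below 0.1, so it was judged over the 3 times alone. Signal at low counts limits PIM1, with 82 to 216 T>C reads per dCBP-30 library at 2 h.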

Other observations

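Conversions per T>C read of the members at 24 h of dCBP-30 were 1.52, 2.43 and 1.75 in PIM1, 1.48, 1.33 and 1.42 in PIM2 and 1.63, 1.49 and 1.67 in PIM3, against 2.65, 2.44 and 2.73, 2.49, 2.47 and 2.42, and 2.63, 2.65 and 2.69 with DMSO. For PIM2 this number was also lower with dCBP-30 at 2 h (1.89, 1.71 and 1.78 against 2.24, 2.19 and 2.22) and at 6 h (1.93, 1.89 and 1.93 against 2.18, 2.16 and 2.15). In PIM1 and PIM3 the groups overlapped at 2 and 6 h. No test was run on these values.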
